A study of Sus scrofa with 36 samples.

Results

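The genes described here are 10 genes known to respond to glucocorticoids, measured in the thyroid glands of 36 castrated male growing pigs. They are NR3C1, FKBP5, TSC22D3, DUSP1, KLF9, ZBTB16, CEBPD, SGK1, PDK4 and MT1A. A probe was taken for a gene when the array's gene name was that symbol or when the probe description held the symbol in round brackets, so the match of probes to genes used no measured value. The genes themselves were picked with earlier results of these data known. This rule found 40 probes for 9 of the 10 genes, among 46222 probes that were bright enough to be tested out of 60305. All 40 probes passed the filter on dim signals. TSC22D3 had no probe by this rule. It is described from 2 probes whose description spells the protein's name out, which were taken up after the data had been seen.

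Glucocorticoids, which are cortisol in pigs, enter cells and bind the glucocorticoid receptor, which then moves to the nucleus and changes transcription. Many cells answer with the same core of transcripts, which includes the receptor's co-chaperone FKBP5, the anti-inflammatory proteins DUSP1 and TSC22D3, and several transcription factors. Some of these genes also answer to other signals. DUSP1 and KLF9 also follow growth factor and thyroid hormone signals respectively, PDK4 follows fasting and fatty acids, and metallothioneins follow zinc and other metals.

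The pigs were Creole (CR), Large White (LW) or their cross (F1), and each breed had 6 pigs labelled 24 °C and 6 labelled 30 °C. Replicate numbers of pigs were assigned here within each group and are not in the labels. The growth protocol instead puts the heat at 32 °C for 5 days, and the groups are called here by their labelled temperature. All pigs had feed at will and were killed without a fast. The paper reports that the heated pigs ate less per day in the heat than before it, so temperature cannot be told apart from feed intake. All 24 °C pigs were slaughtered before the room was warmed and all 30 °C pigs after it, so temperature cannot be told apart from the day of slaughter and the pigs' age. Pigs of a breed came from a few litters, which the labels do not name, so littermates entered the tests as independent pigs, and a breed cannot be told apart from its litters. The paper housed pigs of the same breed together in pens, and each pen was slaughtered at a single temperature, so each group held few pens. The paper fitted pen as a random effect. The labels do not name the pens, so pen-mates too entered the tests here as independent pigs.

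Each gland was hybridized to 1 porcine 1-colour array of 60-base probes, and the values are log2 of the quantile-normalized spot intensity. The share of probes well above background ranged from 72.8% to 80.3% over the arrays, and 0 spots were saturated. The thyroid follicular genes TG, SLC5A5, DUOX2, FOXE1, NKX2-1, PAX8 and TSHR were well above background on all 36 arrays, and no follicular marker was called for temperature (0 of 7, limma, and 0 at an unadjusted p under 0.05). PTH, the parathyroid hormone gene, was too dim to test. In such whole tissue samples, fewer cells of a type and less RNA per cell cannot be told apart.

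Several results below depend on which stretch of a transcript a probe reads, so the stretches that matter are shown first, as 30 of the 60 bases of each probe, 5′ to 3′, as the scanner files give them. The files place no probe on a genome build. For MT1A the array holds 3 probes. The capitals mark the 12 bases that the probe O4231 shares with the other probes, which share 30 bases with each other.
MT1A O4231: cccttcctaTGAAATATGTGAatgataata
MT1A A_72_P079681: TGAAATATGTGAgttgtaataaaagttgtc
MT1A A_72_P744498: TGAAATATGTGAgttgtaataaaagttgtc

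For KLF9 the brightest of 11 probes and the probe A_72_P070711 are shown, since they gave different results. They share no run of 10 bases or more with each other. The first reads a stretch with 36.7% G and C bases and the second a stretch with 55.0%, beside a median of 41.7% over all tested probes.
KLF9 A_72_P596059: ctatatgtggcttttgtccagcacttagat
KLF9 A_72_P070711: tcttgcagtttcctctctcagcgcctcggg

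For DUSP1 both probes are shown, since they read different stretches and share no run of 10 bases.
DUSP1 O14753: gcagcagtgttgggtttgtttgttttttaa
DUSP1 A_72_P162971: gaaacttcatgcttgacatacctaccagtg

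For PDK4 the array holds 11 probes, and the brightest, O11548, has all 60 bases in common with A_72_P576424. A further probe shares the 19 bases in capitals.
PDK4 O11548: CTAGTGGATGGAAACTGACtgttcaggccc
PDK4 A_72_P561949: ggattCTAGTGGATGGAAACTGACgttcag

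The letters AATAAA, the usual polyadenylation signal, occurred in 5 of the 40 probes read as printed (12.5%), beside 11.1% of all tested probes. On the other strand they occurred in 1 of the 40 probes, beside 4.43% of all tested probes. The 5 were the 3 probes of MT1A, the KLF9 probe A_72_P070711 and the brighter SGK1 probe. Each gene is described below by its main probe, which is the tested probe with the highest mean over the 36 arrays.

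Over the 3 breeds, DUSP1 was lower at 30 °C than at 24 °C, MT1A was lower on 1 of its 3 probes while the other probes changed by 0.04 each, the receptor gene NR3C1 and the kinase gene SGK1 did not pass the test, with changes near 0, and PDK4, ZBTB16 and FKBP5 lay lower on average with a spread between pigs that kept them from passing the test. Of the 9 main probes, 2 were called, which is 22.2% of them, both lower at 30 °C, and 7 of the 9 changes were below 0. With the probes of each gene averaged, 1 was called, since MT1A was not. A probe was called at a Benjamini-Hochberg adjusted p under 0.05 over all tested probes (limma). Among all tested probes 1.18% were called and 0.876% were called as lower at 30 °C, and 44.4% of changes were below 0. At an unadjusted p under 0.05 there were 5 of the 9 genes, beside 9.74% of all tested probes. The median change of the 9 genes was -0.32 on the log2 scale, beside 0.01 over all tested probes. By probe rather than gene, 4 of the 40 probes were called (10%), and they belonged to DUSP1, MT1A and KLF9.

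**Figure D1:**
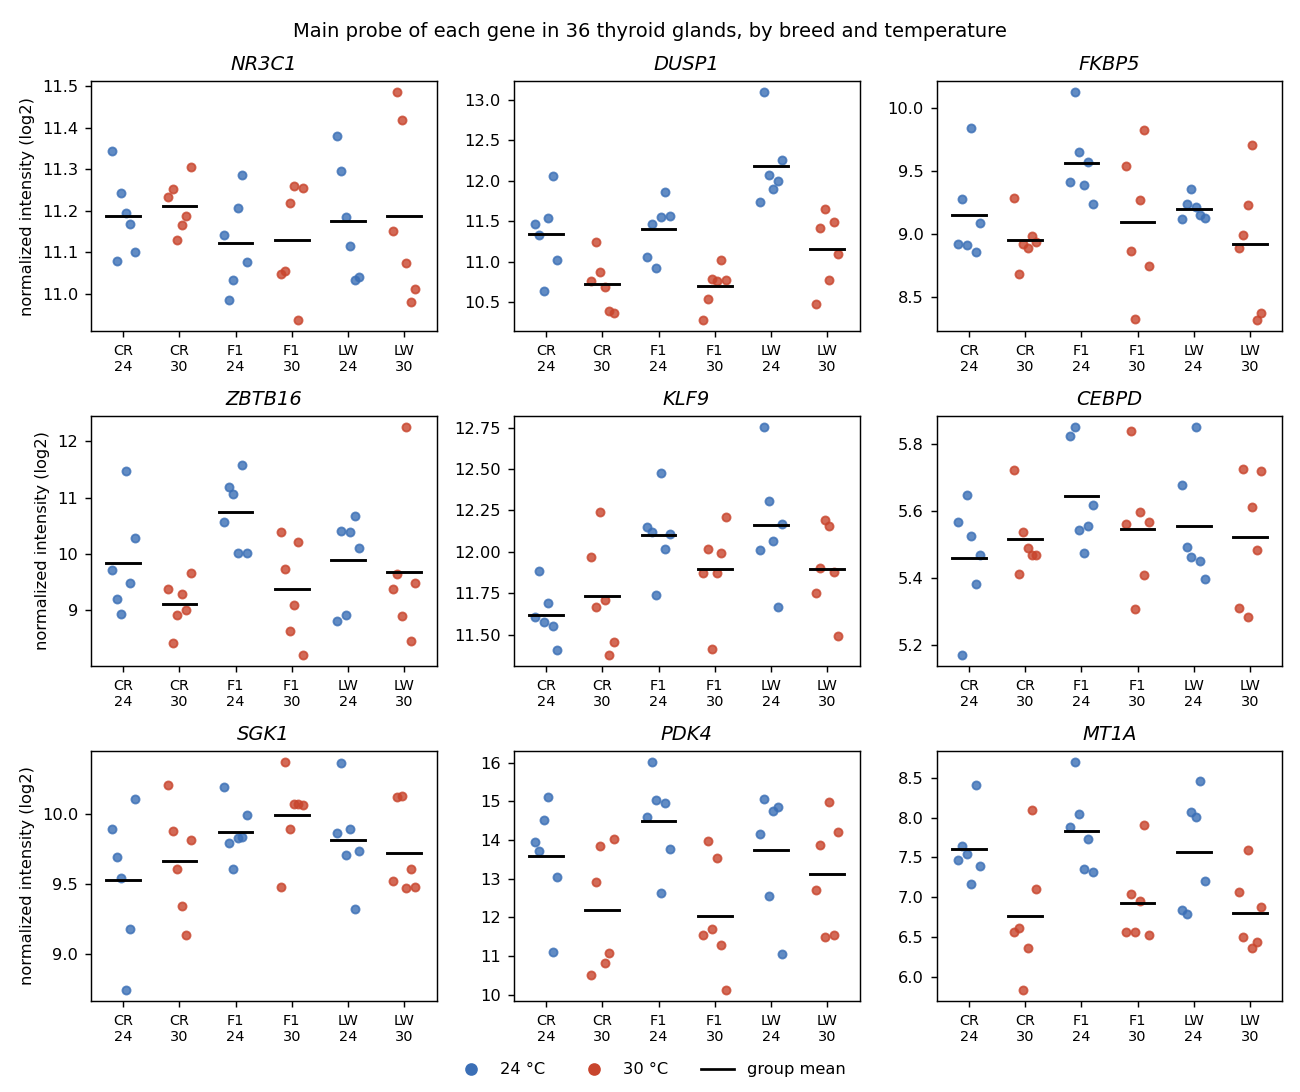
Log2 normalized intensity (vertical axes) of the main probe of 9 genes in each of 36 pigs, by breed and labelled temperature (horizontal axes). Points are pigs, 6 in each group, and black lines are group means. DUSP1 lies lower at 30 °C in all 3 breeds, PDK4 spreads over several log2 units within each group, and NR3C1 stays between 10.94 and 11.49.

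NR3C1 encodes the glucocorticoid receptor, and its main probe had a lowest, median and highest log2 intensity of 10.98, 11.15 and 11.38 at 24 °C and of 10.94, 11.18 and 11.49 at 30 °C. The groups overlapped almost completely. The change was 0.01 (SE 0.04, adjusted p = 0.97, limma), with a 95% interval from -0.08 to 0.11. The 4 probes of the gene gave changes between 0.01 and 0.04, and none was called. A second copy of the main probe's sequence, filed on the array under another name, gave 0.06 (SE 0.05).

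FKBP5 encodes a co-chaperone that binds the receptor complex and lowers its affinity for the hormone, and it is among the most used transcript markers of glucocorticoid action. Its main probe had a lowest, median and highest log2 intensity of 8.86, 9.24 and 10.12 at 24 °C and of 8.32, 8.93 and 9.82 at 30 °C. The 2 ranges overlapped over most of their length, and 14 of 18 pigs at 30 °C lay below the 24 °C mean of their breed. The change was -0.32 (SE 0.12, adjusted p = 0.288, limma), with a 95% interval from -0.56 to -0.08. All 5 probes of the gene gave changes between -0.35 and -0.21 with an unadjusted p under 0.05, and none was called. The nearest to the threshold was A_72_P719403 at -0.35 (adjusted p = 0.0761, limma), which fell below it when either of 2 pigs was left out, replicate 4 of LW at 30 °C or replicate 5 of F1 at 30 °C.

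TSC22D3 encodes GILZ, a leucine zipper protein that carries part of the anti-inflammatory action of glucocorticoids. Its brighter probe had a lowest, median and highest log2 intensity of 10.68, 10.95 and 11.40 at 24 °C and of 10.36, 10.85 and 12.13 at 30 °C. The means hardly differed, with a change of 0.04 (SE 0.11, adjusted p = 0.968, limma), and the SD was 0.20 at 24 °C and 0.52 at 30 °C. A test of the difference in spread was not run. The highest values at 30 °C came from replicate 1 of CR at 12.13 and replicate 6 of F1 at 11.84. The dimmer probe was well above background on 28 arrays and had a change of -0.10 (adjusted p = 0.64, limma).

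DUSP1 gave the firmest change of the 10 genes. It encodes a phosphatase that switches off the MAP kinases p38 and JNK, and its gene is induced both by glucocorticoids and, within minutes, by growth factors and stress. Its main probe had a lowest, median and highest log2 intensity of 10.63, 11.55 and 13.09 at 24 °C and of 10.28, 10.77 and 11.65 at 30 °C. All 18 pigs at 30 °C lay below the 24 °C mean of their breed. DUSP1 fell by 0.79 on the log2 scale (SE 0.13, adjusted p = 0.000164, limma), which was 1.72-fold, with a 95% interval from -1.04 to -0.53. The second probe, which reads a different stretch, fell by 0.78 (SE 0.12, adjusted p = 0.000125, limma). A second copy of the main probe's sequence under another name fell by 0.80 (adjusted p = 0.000132, limma). Within the 4 slides that held both temperatures of a breed, the change lay between -0.84 and -0.65. It was called in each of the 36 fits that left out 1 pig.

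**Figure D2:**
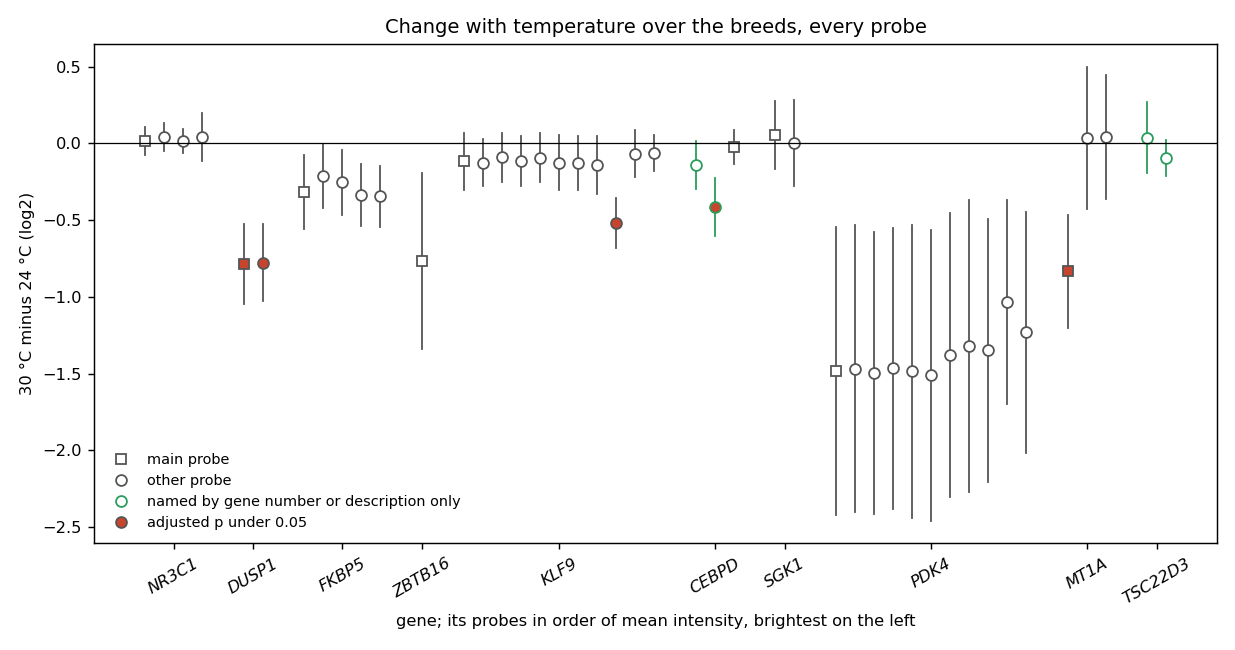
Change with temperature over the breeds, in log2 units of 30 °C minus 24 °C (vertical axis), for every probe of the 10 genes, grouped by gene and ordered from bright to dim (horizontal axis). Bars are 95% intervals from the model, squares are main probes, green marks probes named only by gene number or description, and red fill marks an adjusted p under 0.05. Both DUSP1 probes are called, while 1 of 11 KLF9 probes and 1 of 3 MT1A probes are. The dim CEBPD probe A_72_P295134, which is named only by gene number, is called too.

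KLF9 encodes a zinc finger repressor that is induced by glucocorticoids and by thyroid hormone. Its main probe had a lowest, median and highest log2 intensity of 11.41, 12.01 and 12.75 at 24 °C and of 11.38, 11.88 and 12.24 at 30 °C, and the groups overlapped. The change was -0.12 (SE 0.09, adjusted p = 0.762, limma). Of the 11 probes, 10 gave changes between -0.14 and -0.06, none of them called. Of these, 4 form a chain of overlapping sequences, so they share part of what they read. The remaining probe, A_72_P070711, fell by 0.52 (SE 0.08, adjusted p = 6.97e-05, limma). It had a lowest, median and highest log2 intensity of 6.29, 6.79 and 7.47 at 24 °C and of 5.86, 6.33 and 6.61 at 30 °C. All 18 pigs at 30 °C lay below the 24 °C mean of their breed on this probe, and it was called in each of the 36 fits that left out 1 pig. It was a dim probe, with a mean of 6.53, but well above background on all 36 arrays. Its name comes from the same KLF9 sequence record as that of the main probe. The call for KLF9 thus rested on 1 of its 11 probes. That the probes differ from each other was not tested.

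ZBTB16 encodes PLZF, a zinc finger transcription factor strongly induced by glucocorticoids in many cells. It had 1 probe, with a lowest, median and highest log2 intensity of 8.81, 10.19 and 11.58 at 24 °C and of 8.20, 9.32 and 12.25 at 30 °C. At 30 °C 17 of 18 pigs lay below the 24 °C mean of their breed, and the exception, replicate 4 of LW, was the highest of all 36 pigs. The change was -0.77 (SE 0.28, adjusted p = 0.272, limma), with a 95% interval from -1.34 to -0.19. A second copy of the sequence under another name gave -0.75 (adjusted p = 0.283, limma). Without replicate 4 of LW at 30 °C the change was -0.95 (adjusted p = 0.0279, limma), and the test was then passed. Within slides the change lay between -1.77 and -0.06.

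CEBPD encodes a leucine zipper transcription factor that both glucocorticoids and cytokines induce. The single probe of the rule was dim and well above background on 24 of 36 arrays, with a range from 5.17 to 5.85 at 24 °C and from 5.28 to 5.84 at 30 °C. Its change was -0.02 (SE 0.05, adjusted p = 0.954, limma). The array holds 2 further probes that the table of current names assigns to CEBPD by gene number. The bright one, with a mean of 12.25, had a change of -0.14 (SE 0.08, adjusted p = 0.598, limma). The dim one, well above background on 25 arrays, fell by 0.41 (SE 0.09, adjusted p = 0.0114, limma), and it shares 25 bases with the opposite strand of a probe for an uncharacterized transcript. It reached 6.65 in 1 pig at 30 °C, above all pigs at 24 °C, while 17 of 18 pigs at 30 °C lay below the 24 °C mean of their breed.

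SGK1 encodes a kinase that acts on ion channels and transporters, and it is induced by both glucocorticoids and mineralocorticoids. Its main probe had a lowest, median and highest log2 intensity of 8.75, 9.81 and 10.36 at 24 °C and of 9.14, 9.85 and 10.37 at 30 °C. The groups overlapped, and the change was 0.05 (SE 0.11, adjusted p = 0.948, limma), with a 95% interval from -0.17 to 0.28. The second probe gave 0.00 (SE 0.14).

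PDK4 encodes a kinase that turns off the pyruvate dehydrogenase complex and so spares glucose. It had the largest average difference of the 9 genes and the largest spread. Its main probe had a lowest, median and highest log2 intensity of 11.05, 14.34 and 16.01 at 24 °C and of 10.14, 12.20 and 14.98 at 30 °C, with an SD of 1.38 and 1.49. The ranges overlapped, and 13 of 18 pigs at 30 °C lay below the 24 °C mean of their breed. The change was -1.48 (SE 0.46, adjusted p = 0.137, limma), with a 95% interval from -2.42 to -0.55. All 11 probes gave changes between -1.51 and -1.03 with an unadjusted p under 0.05, and none was called, so the spread was between pigs and not between probes. Within slides the change lay between -2.73 and 0.89, and it was above 0 on 1 of the 4 slides. Without replicate 6 of LW at 24 °C, which had the lowest value of the 24 °C pigs, the change was -1.68 (adjusted p = 0.0439, limma) and 12 of the 40 probes were called in place of 4.

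MT1A encodes a metallothionein, a small protein that binds zinc and copper. The main probe O4231 had a lowest, median and highest log2 intensity of 6.79, 7.59 and 8.70 at 24 °C and of 5.84, 6.59 and 8.10 at 30 °C. The ranges overlapped, and 15 of 18 pigs at 30 °C lay below the 24 °C mean of their breed. The probe fell by 0.83 (SE 0.18, adjusted p = 0.00744, limma), which was 1.78-fold. The other 2 probes of the gene had changes of 0.04 (SE 0.23) and 0.04 (SE 0.20), neither called. Their medians were 6.98 and 6.71 at 24 °C and 6.81 and 6.89 at 30 °C. After the group means were taken out, these 2 probes followed each other over the 36 pigs with r = 0.96 (rho = 0.96), while O4231 followed them with r = 0.26 (rho = 0.32, permutation, adjusted p = 0.155 and 0.0778) and r = 0.43 (rho = 0.45, permutation, adjusted p = 0.0174 and 0.015). Without the 2 pigs farthest from the median of the first-named probe these r were 0.96, 0.16 and 0.34, and 3 such pairs were computed. The 2 uncalled probes were named on the array from a pig MT1A record, while O4231 was named from a human one. Which metallothionein transcript O4231 reads was not tested. With the 3 probes averaged, the change was -0.25 (adjusted p = 0.704, limma) and MT1A was no longer called.

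Within a single breed none of the 9 main probes was called. For CR the share called was 0.387% of all tested probes, for F1 0.383% and for LW 0%, all by limma, and at an unadjusted p under 0.05 there were 2, 5 and 2 of the 9 genes, beside 5.75%, 10.6% and 4.01% of all tested probes. DUSP1 had changes of -0.62 (SE 0.22) in CR, -0.71 (SE 0.22) in F1 and -1.03 (SE 0.22) in LW. In LW it lay between 11.74 and 13.09 at 24 °C and between 10.48 and 11.65 at 30 °C, with an adjusted p of 0.155 (limma). How many of all tested probes had such separate ranges in LW was not counted. In CR and F1 the groups overlapped, in F1 from 10.93 to 11.02. MT1A was alike in the 3 breeds by O4231, at -0.84, -0.91 and -0.76 (SE 0.32 each). PDK4 had -1.38 in CR, -2.47 in F1 and -0.61 in LW (SE 0.79 each), and ZBTB16 had -0.74, -1.36 and -0.20 (SE 0.48 each). F1 had the most negative change for both genes. The test of whether the change differed between breeds called 0 of the 9 genes, beside 0% of all tested probes (limma). At an unadjusted p under 0.05 there were 0 of the 9 genes, beside 4.67% of all tested probes. For PDK4 its unadjusted p was 0.264 and for ZBTB16 0.251, so a difference between breeds was not detected.

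**Figure D3:**
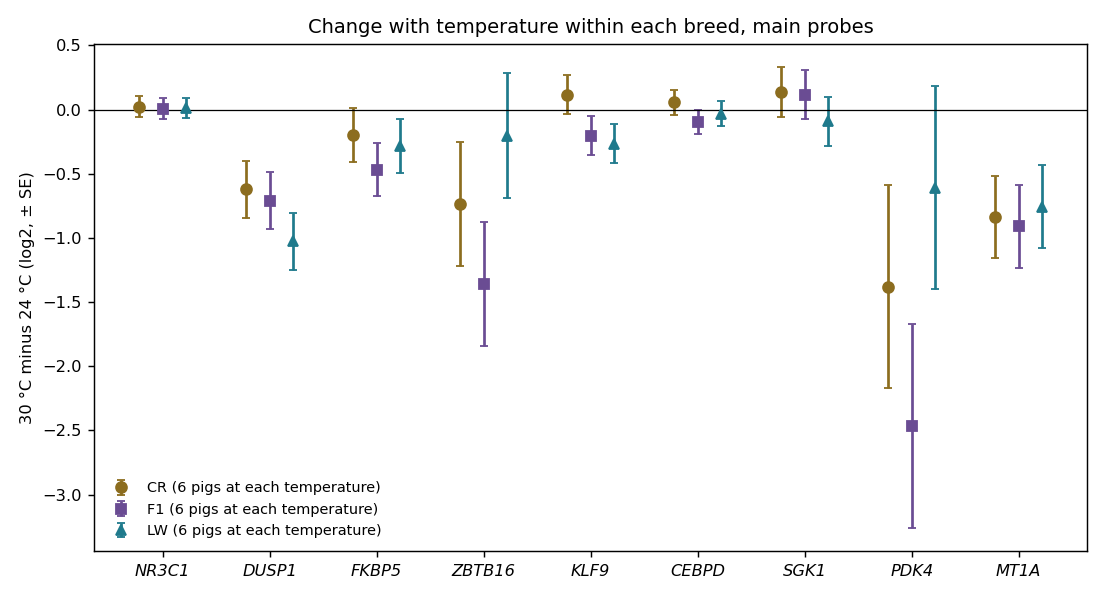
Change with temperature within each breed, in log2 units of 30 °C minus 24 °C (vertical axis), for the main probe of 9 genes (horizontal axis). Points are differences of group means of 6 pigs and bars are ± SE from the model. DUSP1, MT1A, FKBP5, PDK4 and ZBTB16 are below 0 in all 3 breeds, and for PDK4 and ZBTB16 the LW value is the nearest to 0. The other MT1A probes, which are not shown, had changes of 0.52 and 0.50 in CR.

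Between the breeds, DUSP1 stood higher in LW than in the other pigs. Of the 9 main probes, 2 were called for LW against CR, 22.2%, beside 12.9% of all tested probes. By probe, 6 of the 40 were called, 15%. At an unadjusted p under 0.05 there were 2 of the 9 genes, 22.2%, beside 26.2% of all tested probes, so the genes did not stand out from the rest of the array here. DUSP1 had a mean of 11.66 ± 0.70 (SD, n = 12) in LW, 11.03 ± 0.51 (SD, n = 12) in CR and 11.05 ± 0.47 (SD, n = 12) in F1. It was higher in LW than in CR by 0.63 (SE 0.16, adjusted p = 0.0055, limma) and lower in F1 than in LW by 0.62 (SE 0.16, adjusted p = 0.0275, limma), and its second probe was called in both comparisons too. KLF9 was higher in LW than in CR by 0.35 on its main probe (SE 0.11, adjusted p = 0.0307, limma), and 2 of its 11 probes were called. NR3C1 was not called by its main probe, at -0.02 (SE 0.06), but 2 of its other probes were higher in LW, by 0.31 (adjusted p = 0.025, limma) and 0.14 (adjusted p = 0.0424, limma). TSC22D3 went the other way on its brighter probe and was lower in LW than in CR by 0.46 (SE 0.14, adjusted p = 0.0222, limma). For F1 against LW 1 of the 9 genes was called, beside 1.99% of all tested probes. In that comparison 1 of the 9 had an unadjusted p under 0.05, beside 13.4% of all tested probes. For F1 against CR 0 were called (limma), beside 3.38% of all tested probes, and 2 of the 9 had an unadjusted p under 0.05, beside 17.2% of all tested probes.

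The genes also varied between pigs of the same group. Deviations from the group means were correlated over the 36 pigs for 13 measures, which are the 9 main probes, PER1, FOS, the brighter TSC22D3 probe and the KLF9 probe A_72_P070711, and gave 78 pairs. The last pair of measures was added after the data had been seen. Of the 78 pairs, 8 had an adjusted permutation p under 0.05 by Pearson's r, all with r above 0, and 5 of these also by Spearman's rho.

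One set held FKBP5, ZBTB16 and PER1, a clock gene that glucocorticoids induce directly. ZBTB16 and FKBP5 had r = 0.67 and rho = 0.58 (permutation, adjusted p = 0.0065 and 0.0314). ZBTB16 and PER1 had r = 0.66 and rho = 0.53 (permutation, adjusted p = 0.0109 and 0.0412). FKBP5 and PER1 had r = 0.64 and rho = 0.49 (permutation, adjusted p = 0.0065 and 0.0701). Without the 2 pigs farthest from the median these r were 0.53, 0.45 and 0.55. In replicate 4 of LW at 30 °C, FKBP5 at 9.70, ZBTB16 at 12.25, PER1 at 14.31 and PDK4 at 14.98 were each the highest of the group. In replicate 4 of CR at 24 °C the same 4 genes, at 9.84, 11.47, 14.32 and 15.11, were again the highest of their group. These 2 pigs are examples. In replicate 5 of F1 at 30 °C, FKBP5 at 9.82 was the highest of its group while PDK4 at 11.30 was not. Over the 36 pigs PDK4 had r = 0.22 with FKBP5 and r = 0.14 with PER1 (permutation, adjusted p = 0.541 and 0.731), and neither passed.

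The other pairs held DUSP1, KLF9, SGK1 and TSC22D3. DUSP1 and FOS, an immediate early transcription factor gene, had r = 0.63 and rho = 0.69 (permutation, adjusted p = 0.0039 and 0.00234), and r = 0.68 without the 2 farthest pigs. DUSP1 and the KLF9 probe A_72_P070711 had r = 0.59 and rho = 0.54 (permutation, adjusted p = 0.0109 and 0.0314), and r = 0.45 without them. DUSP1 had r = -0.06 with FKBP5 and r = -0.10 with ZBTB16 (permutation, adjusted p = 0.86 and 0.812), so no relation of DUSP1 with those 2 genes was detected. The KLF9 probe A_72_P070711 also had r = 0.52 with KLF9's main probe and r = 0.50 with SGK1 (permutation, adjusted p = 0.0491 each), with rho of 0.44 and 0.46 that did not pass (permutation, adjusted p = 0.0998 and 0.0741). KLF9's main probe and TSC22D3 had r = 0.57 and rho = 0.54 (permutation, adjusted p = 0.0084 and 0.0314). PDK4 had its largest r with CEBPD, 0.44, and with ZBTB16, 0.43 (permutation, adjusted p = 0.0939 each), and neither passed.

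**Figure D4:**
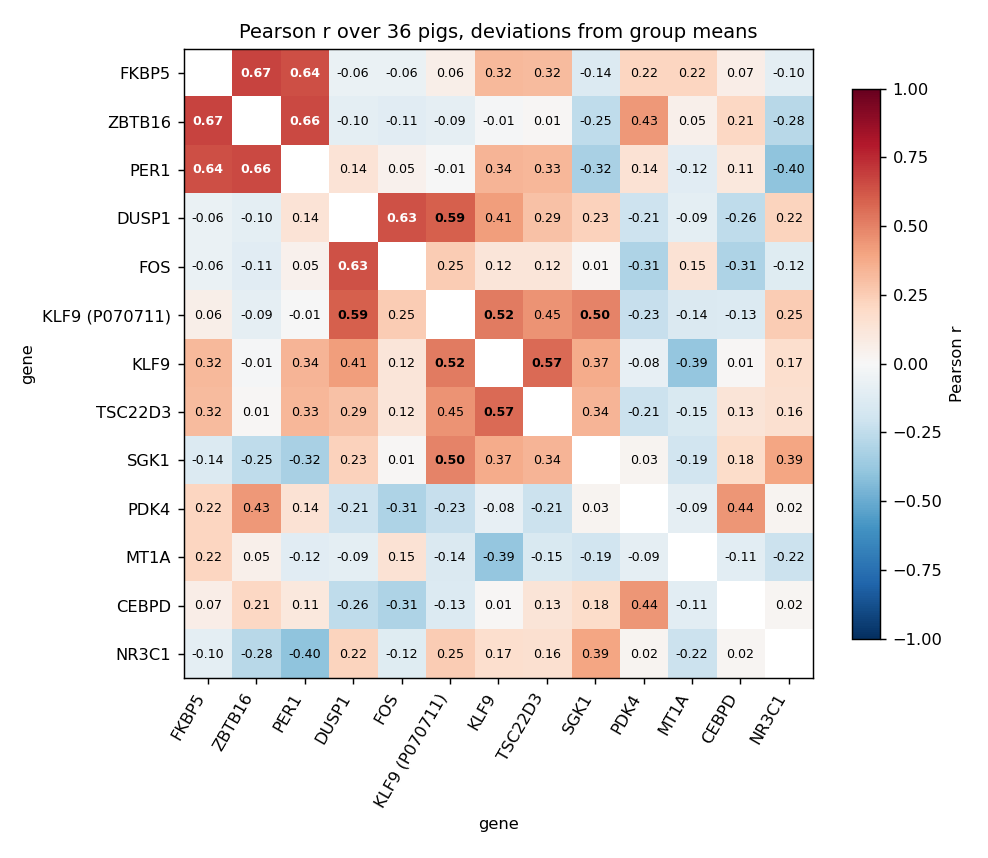
Pearson's r over 36 pigs between the deviations from group means of 13 measures (rows and columns are genes), from -1 in blue to 1 in red. Bold values have an adjusted permutation p under 0.05. FKBP5, ZBTB16 and PER1 form 1 block, and DUSP1 joins FOS and the KLF9 probe A_72_P070711.

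Few of the other genes of the pathway passed the test. Among all tested probes 1.18% were called and 9.74% had an unadjusted p under 0.05 (limma). Of 6 genes for the receptor and the supply of hormone, NR3C1 among them, 0 were called for temperature (limma) and 1 had an unadjusted p under 0.05. The mineralocorticoid receptor NR3C2 had a change of 0.12 (SE 0.05), the drug and steroid exporter ABCB1 had 0.13 (SE 0.17), and HSD11B1, which makes cortisol from cortisone, had -0.11 (SE 0.11). Of 11 receptor chaperones and coregulators 0 were called (limma) and 1 had an unadjusted p under 0.05. Among them BAG1, which binds HSP70 chaperones, had 0.13, the coactivator NCOA2 had 0.11 and the co-chaperone FKBP4 had 0.08. Of 32 other genes of the members' families 0 were called (limma) and 4 had an unadjusted p under 0.05, with DUSP6 at -0.17, FKBP7 at -0.15 and FKBP9 at -0.13.

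Of 35 other genes that glucocorticoids induce, 1 was called, 2.86% of the list beside 1.18% of all tested probes, and 11 had an unadjusted p under 0.05, beside 9.74%. This was PER1, which fell by 0.50 (SE 0.12, adjusted p = 0.0327, limma), from a median of 13.75 at 24 °C to 13.22 at 30 °C. ANGPTL4, an inhibitor of lipoprotein lipase, had -1.01 (SE 0.29, adjusted p = 0.0918, limma). The median change of the list was -0.04 and 21 of 35 genes lay below 0. Of 12 genes that glucocorticoids lower, 1 was called, 8.33% of the list beside 1.18% of all tested probes, and it too was lower at 30 °C. An unadjusted p under 0.05 was found for 4 of the 12, beside 9.74% of all tested probes. The called gene was the chemokine CCL2, which fell by 0.54 (SE 0.11, adjusted p = 0.00304, limma), while PTGS2 had -0.43 (SE 0.15) and SELE had -0.22 (SE 0.11).

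Of 20 immediate early genes, which growth factors and stress induce within minutes, 4 were called, 20% of the list, all lower at 30 °C. Among all tested probes 1.18% were called and 0.876% were called as lower (limma). At an unadjusted p under 0.05 there were 5 of the 20 genes, beside 9.74% of all tested probes. FOS fell by 1.58 (SE 0.31, adjusted p = 0.00219, limma), from a median of 12.46 at 24 °C to 10.63 at 30 °C, and its ranges overlapped, from 11.00 to 13.82 and from 9.27 to 13.33. JUN fell by 0.89 (SE 0.16), EGR1 by 0.72 (SE 0.15) and MYC by 0.32 (SE 0.08). The median change of this list was -0.04.

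Markers of other cells were also read, since the gland holds blood, fat and connective tissue. Of 6 red cell markers HBB was called and fell by 1.00 (SE 0.19). Of 6 neutrophil markers BPI was called and fell by 1.68 (SE 0.35). Each was 16.7% of its list, beside 1.18% of all tested probes (limma). In the 2 lists 5 of 6 and 6 of 6 changes lay below 0, beside 44.4% of all tested probes. At an unadjusted p under 0.05 there were 3 red cell and 5 neutrophil markers, beside 9.74% of all tested probes. The summed log2 level of the neutrophil markers ranged from 9.05 to 11.03 at 24 °C and from 8.72 to 9.80 at 30 °C, and that of the red cell markers from 12.17 to 12.88 and from 11.89 to 12.72. Fat cell markers were below 0 in 7 of 7 cases with a median of -0.33 and fibroblast markers in 7 of 8 with a median of -0.28, and 0 of either list were called (limma), with 4 and 3 at an unadjusted p under 0.05. Macrophage and monocyte markers were below 0 in 7 of 7 cases (median -0.16) and skeletal muscle markers in 8 of 9 (median -0.07), with 0 called (limma) and 1 and 0 at an unadjusted p under 0.05. Other lists were split between the directions. Endothelium markers were below 0 in 4 of 8 cases (median 0.01), lymphocyte markers in 5 of 9 (median -0.01) and thyroid C cell markers in 2 of 4 (median 0.03). Of these lists 0 were called (limma), with 2, 0 and 0 at an unadjusted p under 0.05. The summed fat cell level ranged from 14.16 to 15.59 at 24 °C and from 13.95 to 15.29 at 30 °C, and that of the fibroblast markers from 15.69 to 17.34 and from 15.64 to 17.53. Over the 36 pigs, deviations of 11 measures of the 10 genes from their group means were correlated with the summed levels of the red cell, neutrophil, fat cell and fibroblast lists, 44 pairs in all. The r lay between -0.37 and 0.44, the lowest adjusted permutation p was 0.271 for r and 0.154 for rho, and 5 pairs had an unadjusted p under 0.05 for r. The part of these cells in the differences of DUSP1, MT1A and PDK4 was not tested.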

How the data were processed

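Total RNA of 36 thyroid glands, 1 pig per array, was labelled with Cy3 and hybridized to an Agilent porcine array. Per the file headers, each deposited scanner file holds, per spot, a median and a mean pixel intensity, a background intensity and an intensity processed by the scanner software. The submitters' processing notes name Agilent Feature Extraction 10.10.1.1 and limma. The authors quantile-normalized the median pixel intensity, with no background subtracted, and deposited log2 values for 46097 probes. These steps were repeated here from the scanner files, without 1319 control spots per array and with 106 non-uniform spots set to missing. The result differed from the deposited log2 values by a median of 0.00556. Quantile normalization takes the arrays to share a distribution, so a shift of all probes together would not be seen.

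A probe was tested where 1 or more of the groups had it well above background on 5 or 6 of its arrays. limma 3.58.1 in R 4.3.3 was used (lmFit, contrasts.fit, eBayes), 2-sided, and p-values were adjusted after Benjamini and Hochberg across all 46222 tested probes. Temperature and breed effects came from a model with a term for breed and for temperature over all 36 arrays, and effects within breeds and their difference from a model of 6 group means. The fits were tested on simulated data. Temperature changes are 30 °C minus 24 °C. Array position, slide, pen, day of slaughter, sire and dam were not in the main model, and the last 4 are not in the labels. Arrays lay on 5 slides. Correlations used permutation within groups with 100000 resamples, 2-sided.

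The genes, the other gene lists and the tests were chosen with earlier results of these data known. The genes named from the other lists are those called for temperature and, where a list had fewer than 3, those with the largest absolute change. A gene that this rule also names is not reported here. Promoter motifs were not analysed here, since no promoter sequences were at hand. Arrays have no read depth: precision depends on how many there are and on how far a probe lies above background.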

Additional observations from a re-analysis of the deposited data

Results flagged for a closer look

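Among the 9 main probes in the 6 groups of 6 pigs, 54 cases in all, 2 had a pig that stood apart from the other 5 of its group by Dixon's test at its 95% critical value. Chance gives about 1 in 20 such cases. For ZBTB16, replicate 4 of LW at 30 °C had 12.25, while the next highest pig of the group had 9.64 and the median of the others was 9.37. The same pig was the highest of its group for FKBP5, PER1 and PDK4, and without it the change of ZBTB16 with temperature passed the test. For MT1A on probe O4231, replicate 5 of F1 at 30 °C had 7.91, while the next highest had 7.04 and the median of the others was 6.56. MT1A was called with and without this pig.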

How the results depend on the processing

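A total of 15 alternatives for temperature and 13 for the other comparisons gave 662 values, of which 649 were scored as the same. A change was the same where it kept its direction and its side of the threshold. A count of called genes or probes was the same where it was equal or close to the main count. The alternatives were other intensity columns, background corrections and scalings, the deposited log2 values, no filter or a stricter filter on dim probes, slide or position as a block, other models and weights, the mean of a gene's probes, and probes named through the table of current names. DUSP1 kept its call in all of them, with changes from -0.81 to -0.76. The KLF9 probe A_72_P070711 kept it too, from -0.79 to -0.42. The dim CEBPD probe A_72_P295134 kept its call in 14, from -1.13 to -0.22, and dropped out under the strictest filter. With all probes of a gene averaged, 1 of the 9 genes was called for temperature in place of 2, since MT1A went to -0.25. With the processed intensity scaled to the 75th percentile, 1 gene was called for LW against CR in place of 2, since KLF9 had an adjusted p of 0.0504 (limma). The sign turned in 9 uncalled values. With the processed intensity these were CEBPD for temperature at 0.0221 and FKBP5 for LW against CR at -0.0024. For MT1A for LW against CR they were -0.00737 with normexp, -0.0205 with 75th percentile scaling of the median intensity, -0.000697 with the deposited values and -0.0883 with averaged probes. With averaged probes NR3C1 had 0.10 for LW against CR and 0.0202 for F1 against CR, and DUSP1 had -0.0211 for F1 against CR. The causes were not tested.

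Leaving out each pig in turn gave 2 to 3 genes and 4 to 12 of the 40 probes called for temperature. The 2 pigs that added a gene are named beside ZBTB16 and PDK4. NR3C1 ranged from -0.00453 to 0.0271 and TSC22D3 from -0.0196 to 0.0786 and so turned sign. CEBPD's main probe too has no value with the filter on all 36 arrays, where it dropped out. No paired analysis was possible, because each pig was killed at a single temperature and the labels do not name the litters. The TSC22D3 probes, the single probes of KLF9 and CEBPD and the marker and MT1A correlations were added after seeing the data. The CEBPD probes O10651 and A_72_P295134 were well above background on 24 and 25 of the 36 arrays, so their values rest in part on signals near background.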
